A study of Mus musculus with 7 samples.

Results

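This report describes 8 genes of platelet-derived growth factor (PDGF) signalling and of the pericyte, the contractile cell wrapped around capillaries, in mouse hearts after myocardial infarction (MI). They were chosen by name from a table of 56980 mouse genes. The set holds the ligand genes Pdgfa, Pdgfb, Pdgfc and Pdgfd, the receptor genes Pdgfra and Pdgfrb, and the pericyte markers Rgs5 and Cspg4. All 8 were found in the table, and 7 of them passed the filter on low values. RNA sequencing was done on myocardial tissue of 7 wild-type male C57BL/6J mice, a common inbred strain, obtained at 8 weeks of age. In 3 mice the left coronary artery was ligated (MI replicates 1 to 3), and 4 mice had the same surgery without ligation (sham replicates 1 to 4). Tissue was taken 4 days after MI. It was whole tissue, and the study calls that of the MI mice ischemic. The question was which of these genes differed between MI and sham hearts, and by how much.

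PDGF ligands are secreted dimers that bind receptor tyrosine kinases on neighbouring cells. Endothelial cells release PDGF-B, which attracts and holds pericytes through PDGFR-beta on the pericyte surface. PDGF-A and PDGF-C act mainly through PDGFR-alpha, which in the heart marks fibroblasts, while PDGF-D binds PDGFR-beta. PDGF-C and PDGF-D are secreted with an extra domain that proteases remove. Rgs5 encodes a regulator of G protein signalling that is abundant in cardiac pericytes, and Cspg4 encodes the proteoglycan NG2 on the surface of mural cells.

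The promoters of 4 genes are shown because these genes stood at the ends of what was measured. Pdgfra and Pdgfc had the highest MI to sham ratios of the 8 genes, and the markers Cspg4 and Rgs5 took different courses in MI replicates 1 and 3. The RefSeq promoter table matched 6 of the 8 genes by symbol, leaving Pdgfb and Pdgfrb. Each sequence is RefSeq's on GRCm38.p6, plus strand, read 5′ to 3′, and holds the bases before the RefSeq start of the gene, ended before any exon of GENCODE M21. Capitals mark matches to a GC box (GGGCGG) or a CArG box, searched on both strands with overlaps kept. An AP-1 site (TGANTCA) and a TATA box (TATAAA) were searched too and had no match in these 4 windows. The windows lay at chr5:75152001-75152250 for Pdgfra, chr3:81036166-81036415 for Pdgfc, chr9:56864854-56865032 for Cspg4 and chr1:169655251-169655500 for Rgs5, all upstream of the first exon.
Pdgfra: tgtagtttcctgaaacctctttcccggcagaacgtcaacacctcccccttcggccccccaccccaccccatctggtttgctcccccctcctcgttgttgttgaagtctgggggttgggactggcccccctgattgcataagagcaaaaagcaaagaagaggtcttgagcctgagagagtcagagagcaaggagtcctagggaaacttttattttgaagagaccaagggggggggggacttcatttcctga
Pdgfc: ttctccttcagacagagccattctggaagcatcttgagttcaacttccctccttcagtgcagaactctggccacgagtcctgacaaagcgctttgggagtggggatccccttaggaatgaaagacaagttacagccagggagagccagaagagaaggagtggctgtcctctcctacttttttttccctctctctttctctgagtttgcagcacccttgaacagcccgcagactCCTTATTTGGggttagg
Cspg4: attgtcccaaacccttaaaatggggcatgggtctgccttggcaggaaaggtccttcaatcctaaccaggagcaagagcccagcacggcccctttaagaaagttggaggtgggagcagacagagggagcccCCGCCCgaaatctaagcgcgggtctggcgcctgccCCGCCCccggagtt
Rgs5: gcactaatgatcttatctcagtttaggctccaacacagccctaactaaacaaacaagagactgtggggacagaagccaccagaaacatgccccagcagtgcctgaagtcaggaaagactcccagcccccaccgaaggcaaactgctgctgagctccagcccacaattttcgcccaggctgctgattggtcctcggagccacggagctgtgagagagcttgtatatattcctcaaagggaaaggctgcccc
The window of Pdgfc held 1 CArG box, which began 17 bases before the RefSeq start, and 1.47% of the 32851 RefSeq promoters held one in their 250 bases before the start. The window of Cspg4 was cut to 179 bases and held 2 GC boxes, both on the minus strand, and 20.9% of promoters held at least 1 in a stretch of that length. No match to any of the 4 motifs lay in the windows of Pdgfra and Rgs5. The GC content was 54.4% for Pdgfra, 50.8% for Pdgfc and 53.6% for Rgs5, beside a median of 52.4% over all promoters. For Cspg4 it was 60.3%, and 76.0% of promoters had a lower GC content over the same length. These matches describe letters in the windows and show no binding.

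The 7 libraries held between 19977713 and 23610870 fragments, by the depths recovered from the steps of the FPKM values. FPKM counts the fragments of a gene per length of the gene and per fragments of the library. Levels of different genes can be compared only as far as the gene lengths used are right. For the 8 genes the lengths implied by the values did not match the annotated exon lengths, which limits the order of levels and the ratios between genes. The library labelled MI replicate 2 stood close to the sham hearts over the whole table, and no gene was targeted in this design that could check its label. Its fibroblast genes, taken by their mean, stood on the MI side of the sham hearts. The mean of 9 such genes, on the log2(FPKM + 1) scale relative to the sham mean, was 0.68 in this heart, while the sham hearts ran from -0.11 to 0.12 and the other MI hearts stood at 3.10 and 3.22. Across the 11431 genes that passed the filter, its log2(FPKM + 1) values correlated with those of the sham hearts at r from 0.984 to 0.987. The sham hearts correlated among themselves at r of at least 0.989, MI replicate 1 with them at 0.878 to 0.881, and MI replicate 3 at 0.903 to 0.906. Mitochondrial genes held 26.5% to 27.4% of fragments in the sham hearts, 28.2% in MI replicate 2, and 13.6% and 14.96% in MI replicates 1 and 3. Cardiomyocyte markers were abundant in every heart. The tests of the 8 genes, the counts of genes called and the medians of gene lists are therefore given with and without MI replicate 2. Leaving it out compares 4 sham with 2 MI hearts. It was singled out by these same expression values, and its removal narrows the spread within the MI group. The p-values and counts without it are therefore no independent support for a difference.

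In sham hearts the order of levels, by the FPKM values with the gene lengths they imply, was Rgs5, Pdgfrb, Pdgfb, Pdgfa, Pdgfra, Cspg4, Pdgfd and Pdgfc. Rgs5 had a mean of 136 FPKM ± 6.88 (SD, n = 4), 11.8 times the mean of Pdgfrb, the next gene. Pdgfrb followed at 11.6 ± 0.827 and Pdgfb at 9.96 ± 0.335. Pdgfc stood last at 0.309 ± 0.0934. Of the 7 neighbouring pairs in this order, the ranges of the sham hearts overlapped only between Pdgfra and Cspg4. In the MI hearts Pdgfra and Pdgfa changed places: Pdgfa was above Pdgfra in 4 of 4 sham hearts, and Pdgfra was above Pdgfa in 3 of 3 MI hearts, MI replicate 2 included. Ranges overlapped between all neighbours in the MI order other than the first pair and the last, although each MI heart kept that order on its own.

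**Figure D1:**
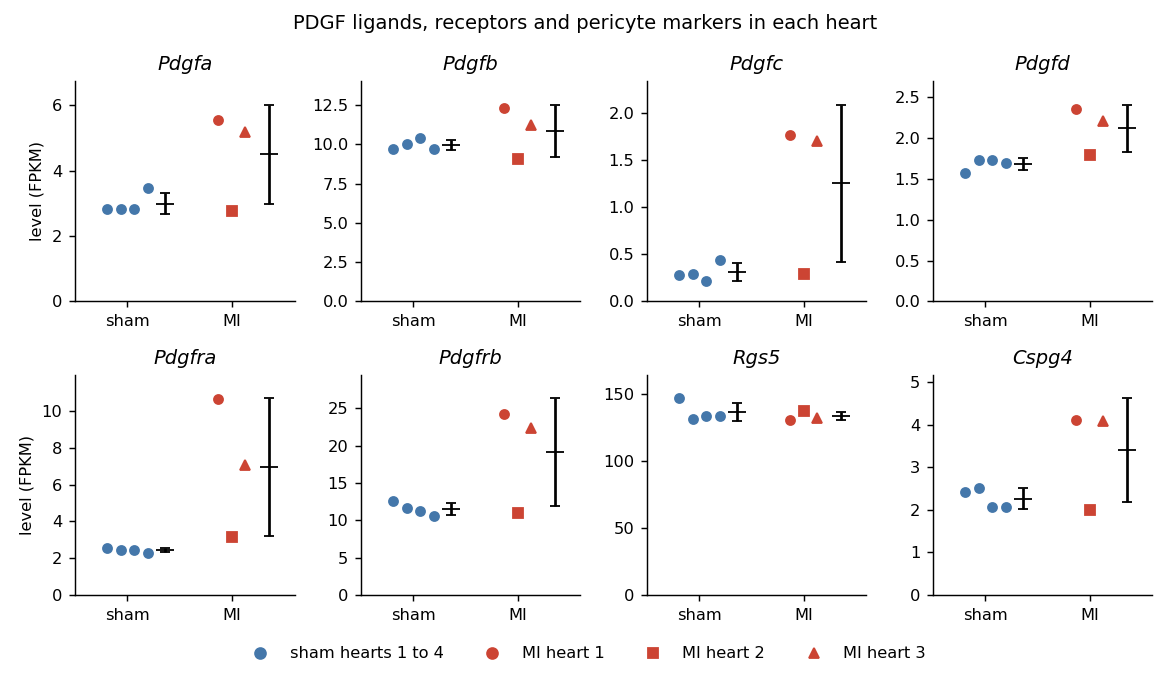
Level of each of the 8 genes (FPKM, vertical axes from 0) in sham hearts (circles) and MI replicates 1 to 3 (circle, square, triangle), with the group mean and SD in black. MI replicates 1 and 3 lie above all sham hearts for each gene other than Rgs5, and MI replicate 2 lies near the sham hearts.

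Among the ligands, Pdgfa, Pdgfc and Pdgfd had higher group means in MI, and Pdgfb differed least. None of the 3 tested ligand genes passed the test with all hearts, while all 3 did so without MI replicate 2, in a fit that called 57.0% of all genes higher.

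Pdgfa encodes the PDGF-A chain. It lies on chromosome 5 at 138976014 to 138997370 (GRCm38, minus strand). It measured 2.81, 2.82, 2.83 and 3.46 FPKM in sham replicates 1 to 4 and 5.56, 2.75 and 5.18 in MI replicates 1 to 3. MI replicates 1 and 3 were above every sham heart and MI replicate 2 was below every one of them. The log2 fold change was 0.43 ± 0.20 (SE) with an adjusted p of 0.145 (limma, Benjamini-Hochberg). Without MI replicate 2 it was 0.68 ± 0.085, with an adjusted p of 0.000367 in limma. These values rest on 319 to 638 fragments per heart.

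Pdgfb encodes the PDGF-B chain made by endothelium and lies on chromosome 15 at 79995874 to 80014977, minus strand. Its level was 9.72, 9.996, 10.4 and 9.70 FPKM in sham replicates 1 to 4 and 12.3, 9.06 and 11.3 in MI replicates 1 to 3. Here too MI replicate 2 was the lowest of all 7 hearts, and the other MI hearts were above all sham hearts. The log2 fold change of 0.11 ± 0.11 (SE) had a limma adjusted p of 0.473. Without MI replicate 2 it was 0.22 ± 0.062 with an adjusted p of 0.0153 in limma. Its direction depended on the scaling between hearts, and scaling by the median log-ratio gave a log2 fold change of -0.14.

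Pdgfc encodes PDGF-C and lies on chromosome 3 at 81036416 to 81214040, plus strand. It was the lowest of the 8 genes and did not reach an FPKM of 1 in 3 hearts, so it was not tested. The levels were 0.283, 0.293, 0.219 and 0.440 FPKM in the sham hearts, from 38 to 65 fragments. MI replicates 1 and 3 measured 1.76 and 1.70 FPKM, from 284 and 297 fragments, and MI replicate 2 measured 0.287, from 48. MI replicates 1 and 3 were 5.71 and 5.51 times the sham mean, the highest ratios of any of the 8 genes. MI replicate 2 fell among the sham hearts. When all 30504 genes with a value above 0 were fitted, its log2 fold change was 0.70 ± 0.27 (SE) with an adjusted p of 0.190 in limma. The same difference was 1.06 without MI replicate 2, with no test.

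Pdgfd encodes PDGF-D and lies on chromosome 9 at 6168584 to 6378850, plus strand. The sham hearts measured 1.57, 1.74, 1.73 and 1.70 FPKM and the MI hearts 2.36, 1.799 and 2.21. All 3 MI hearts were above all 4 sham hearts, with MI replicate 2 above the highest sham heart by a small margin. The log2 fold change was 0.21 ± 0.094 (SE), close to that of the median gene, with a limma adjusted p of 0.131. It was 0.29 ± 0.064 without MI replicate 2, with an adjusted p of 0.00531 in limma. Quantile normalization turned the direction, to a log2 fold change of -0.03.

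Of the receptors, Pdgfra was above the sham hearts in 3 of 3 MI hearts, and Pdgfrb in 2 of 3. Neither passed the test with all hearts, and both passed it without MI replicate 2, where 57.0% of all genes were called higher.

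Pdgfra encodes PDGFR-alpha and lies on chromosome 5 at 75152292 to 75198215, plus strand. Its level was 2.58, 2.47, 2.45 and 2.27 FPKM in sham replicates 1 to 4 and 10.6, 3.15 and 7.04 in MI replicates 1 to 3. The groups did not overlap, and MI replicate 2 was 1.29 times the sham mean while MI replicate 1 was 4.35 times. Its log2 fold change of 1.08 ± 0.31 (SE) ranked 528 of the 11431 genes from the top. The unadjusted p in limma was 0.00921 and the adjusted p 0.108. Without MI replicate 2 the log2 fold change was 1.49 ± 0.14 and the limma adjusted p 9.54e-05. The counts behind it were 678 to 865 fragments in sham and 1069 to 3461 in MI hearts.

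Pdgfrb encodes PDGFR-beta and lies on chromosome 18 at 61045150 to 61085061, plus strand. Sham hearts measured 12.6, 11.7, 11.3 and 10.6 FPKM and MI hearts 24.2, 10.9 and 22.3. MI replicates 1 and 3 were 2.09 and 1.93 times the sham mean, and MI replicate 2 lay inside the sham range. The log2 fold change was 0.61 ± 0.25 (SE), with an unadjusted p of 0.0447 and an adjusted p of 0.122 in limma. It was 0.95 ± 0.078 without MI replicate 2, with an adjusted p of 5.67e-05 in limma.

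The markers Rgs5 and Cspg4 took different courses in MI replicates 1 and 3. Cspg4 was above the sham hearts in MI replicates 1 and 3, as Pdgfrb was, and Rgs5 kept nearly the same level in all 7 hearts. In bulk tissue, fewer cells of a type and less RNA per cell cannot be told apart.

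Rgs5 lies on chromosome 1 at 169655501 to 169695813, plus strand. It measured 146, 131, 134 and 134 FPKM in sham replicates 1 to 4 and 131, 137 and 132 in MI replicates 1 to 3. The highest and the lowest value of the 7 were a sham and an MI heart, and the groups overlapped between 131 and 137 FPKM. The group means were 136 ± 6.88 (SD, n = 4) and 133 ± 3.23 (SD, n = 3). The log2 fold change was -0.03 ± 0.098 (SE), with a limma adjusted p of 0.816, and leaving out MI replicate 2 gave -0.05 ± 0.063 with an adjusted p of 0.499 in limma. It was the only one of the 7 tested genes that did not pass without that heart. That fit called 57.0% of all genes higher and 14.7% lower. The sign depended on the scaling between hearts, with a log2 fold change of 0.17 on the TPM scale, which makes all hearts sum to the same total, and -0.30 under median log-ratio scaling. The median gene stood at 0.42 and 0.0036 under these scalings, above Rgs5 in each. The values rest on 12401 to 15259 fragments per heart, the most of the 8 genes.

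Cspg4 lies on chromosome 9 at 56865033 to 56899870, plus strand. The sham hearts measured 2.42, 2.51, 2.06 and 2.07 FPKM and the MI hearts 4.11, 2.00 and 4.09. MI replicates 1 and 3 had 1.81 times the sham mean each, and MI replicate 2 was below all sham hearts. The log2 fold change of 0.39 ± 0.20 (SE) had an adjusted p of 0.166 in limma. It was 0.65 ± 0.080 without MI replicate 2, with a limma adjusted p of 0.000358.

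Read against all genes tested, these changes differed in standing. On the FPKM scale most genes had a higher group mean in MI. The median log2 fold change over the 11431 genes was 0.21, or 0.33 without MI replicate 2. It depended on the scaling between hearts, at 0.0036 under median log-ratio scaling and -0.031 under quantile normalization. Relative to the median of 0.21, Pdgfra was higher by 0.88, Pdgfrb by 0.40, Pdgfa by 0.22 and Cspg4 by 0.18. Pdgfd stood at the median, at 0.01 above it. Pdgfb was at -0.10 and Rgs5 at -0.24 relative to the median. Over the main fit and its 18 alternatives, each read against its own median gene, Pdgfra ranged from 0.61 to 1.17 and Pdgfrb from 0.27 to 0.63. The range for Rgs5 was -0.38 to -0.09, so it lay below the median gene in every one. Pdgfb and Pdgfd lay on either side of the median, from -0.16 to 0.04 and from -0.04 to 0.15.

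No gene of the 7 tested passed an adjusted p of 0.05 with all hearts, in either direction. Of all 11431 genes, 2 (0.0175%) were called higher and 1 (0.00875%) lower in limma. These 3 were Krt14 and Igkj3, higher, and Tfrc, lower, and they are named here after their values were seen. At an unadjusted p under 0.05, 2 of the 7 genes (Pdgfra and Pdgfrb) were higher and 0 lower, beside 29.5% and 9.85% of all genes. Groups that did not overlap were found for 2 of the 7 genes with MI higher (Pdgfd and Pdgfra) and for 0 with MI lower, beside 16.1% and 9.0% of all genes. Without MI replicate 2, 6 of the 7 were called higher and 0 lower, beside 57.0% and 14.7% of all genes.

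The ratio of 2 FPKM values of the same heart is free of any factor common to that heart, while a difference of log2(FPKM + 1) is so only in part for low genes. Each of 8 differences of log2(FPKM + 1) was compared between groups by an exact two-sided permutation test, for which 35 splits of the hearts allow no p under 0.0571. None could therefore pass 0.05, and the adjusted p over the 8 tests was 0.286 for each.

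The ratio of the 2 receptors was lower in all 3 MI hearts than in any sham heart. Pdgfrb was 4.61 to 4.90 times Pdgfra in the sham hearts, by their FPKM values. It was 2.28 times Pdgfra in MI replicate 1, 3.46 times in MI replicate 2 and 3.17 times in MI replicate 3. On the log2 scale the difference Pdgfrb minus Pdgfra was 1.87 ± 0.045 (SD, n = 4) in sham and 1.39 ± 0.24 (SD, n = 3) in MI hearts. The groups did not overlap, and the exact permutation p was 0.0571, the smallest this design can give. In the other 7 differences the groups overlapped.

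The ratios of Rgs5 to Pdgfrb, Cspg4 and Pecam1 were lower in MI replicates 1 and 3. Rgs5 was 11.3 to 12.6 times Pdgfrb in sham hearts, 5.41 and 5.92 times in MI replicates 1 and 3, and 12.5 times in MI replicate 2. Its ratio to Cspg4 was 52.2 to 65.0 in sham hearts, 31.8 and 32.3 in MI replicates 1 and 3, and 68.5 in MI replicate 2. Beside Pecam1, an endothelial adhesion molecule and 1 of 8 endothelial genes listed, the ratio of Rgs5 was 8.55 to 9.42 in sham hearts, 5.57, 9.40 and 5.15 in MI hearts. The exact permutation p was 0.286 for each of these 3 differences on the log2 scale. In each, MI replicate 2 stood at the upper end of the sham hearts, on the other side from MI replicates 1 and 3. These pairs do not stand for all vessel genes, since the log2 fold changes of the endothelial Kdr and the pericyte gene Vtn, -0.20 and -0.45, were lower than that of Rgs5.

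The ligand differences had the same division of hearts. Pdgfa was 0.272 to 0.357 times Pdgfb in sham hearts and 0.452, 0.303 and 0.460 times in the MI hearts (exact permutation p of 0.114 on the log2 scale). Pdgfc was 0.127 to 0.259 times Pdgfd in sham hearts and 0.748, 0.159 and 0.770 times in the MI hearts (exact permutation p of 0.229). Pdgfb, the ligand, was 0.770 to 0.923 times its receptor Pdgfrb in sham hearts and 0.509, 0.8295 and 0.504 times in MI hearts (exact permutation p of 0.114). The ratio of Cspg4 to Pdgfrb differed least between groups, going from 0.182 to 0.216 in sham hearts to 0.170, 0.183 and 0.183 in MI hearts (exact permutation p of 0.171). With MI replicate 2 left out, MI minus sham on the log2 scale was -0.54 for Pdgfrb minus Pdgfra, 0.46 for Pdgfa minus Pdgfb, 0.77 for Pdgfc minus Pdgfd and -0.73 for Pdgfb minus Pdgfrb. It was -1.001 for Rgs5 minus Pdgfrb, -0.30 for Cspg4 minus Pdgfrb, -0.70 for Rgs5 minus Cspg4 and -0.70 for Rgs5 minus Pecam1.

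**Figure D2:**
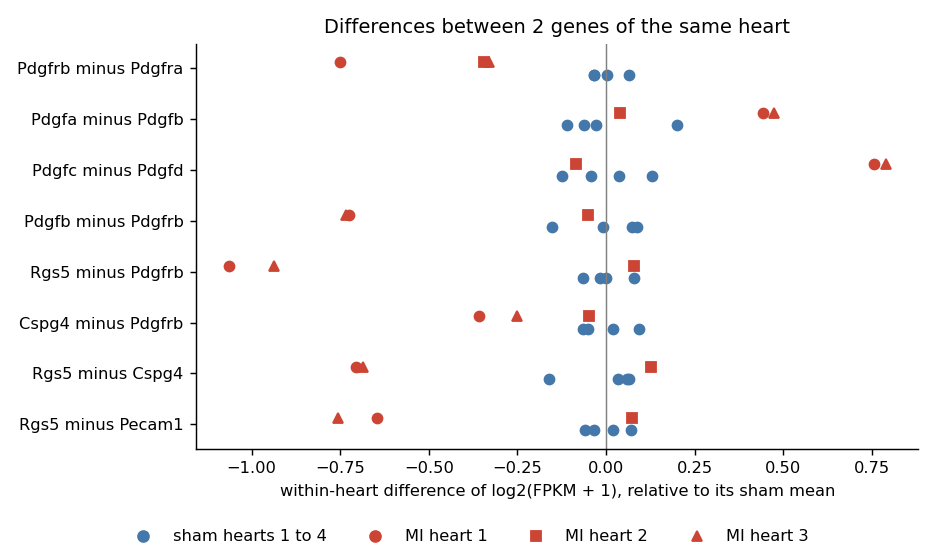
Within-heart difference of log2(FPKM + 1) between 2 genes, relative to its sham mean (horizontal axis), for 8 pairs in sham hearts (blue circles) and MI replicates 1 to 3 (red circle, square, triangle). For Pdgfrb minus Pdgfra all 3 MI hearts lie left of the sham hearts, and for the other pairs MI replicate 2 lies with or near the sham hearts.

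Other pericyte genes had log2 fold changes of both signs. The list held 13 genes, all of which passed the filter, and 0 were called in either direction with all hearts. At an unadjusted p under 0.05, 5 were higher and 3 lower, beside 29.5% and 9.85% of all genes. The median log2 fold change was 0.31, beside 0.21 for all genes tested. Without MI replicate 2, 8 were called higher and 3 lower in limma, beside 57.0% and 14.7% of all genes, and the median was 0.36, beside 0.33.

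Abcc9 encodes the sulfonylurea receptor subunit of the potassium channel of pericytes and also of heart muscle. It measured 43.0 to 47.3 FPKM in sham hearts and 17.7, 42.6 and 19.0 in MI hearts, with a log2 fold change of -0.86 ± 0.28 (SE), or -1.25 without MI replicate 2. Vtn, which encodes the matrix protein vitronectin, measured 8.52 to 11.6 FPKM in sham hearts and 7.02, 6.66 and 6.94 in MI hearts. All 3 MI hearts were below all sham hearts for both genes, and for Vtn MI replicate 2 was the lowest. The other of the 3 lower genes, Kcnj8, the pore subunit that pairs with Abcc9, is named after its values were seen. Kcnj8 had 9.41 to 11.1 FPKM in sham hearts and 7.76, 8.94 and 7.76 in MI hearts. Its groups did not overlap either.

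Anpep, the membrane aminopeptidase also called CD13, had the highest log2 fold change of the list. Its level was 1.54 to 1.87 FPKM in sham hearts and 9.36, 2.45 and 9.26 in MI hearts. Gucy1a1, a subunit of the nitric oxide receptor guanylyl cyclase, measured 1.78 to 1.93 FPKM in sham hearts and 6.00, 2.27 and 6.02 in MI hearts. Both had all 3 MI hearts above all sham hearts, with log2 fold changes of 1.42 ± 0.37 and 0.93 ± 0.26 (SE) and a limma adjusted p of 0.108 each. Their log2 fold changes were 1.94 and 1.3002 without MI replicate 2.

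**Figure D3:**
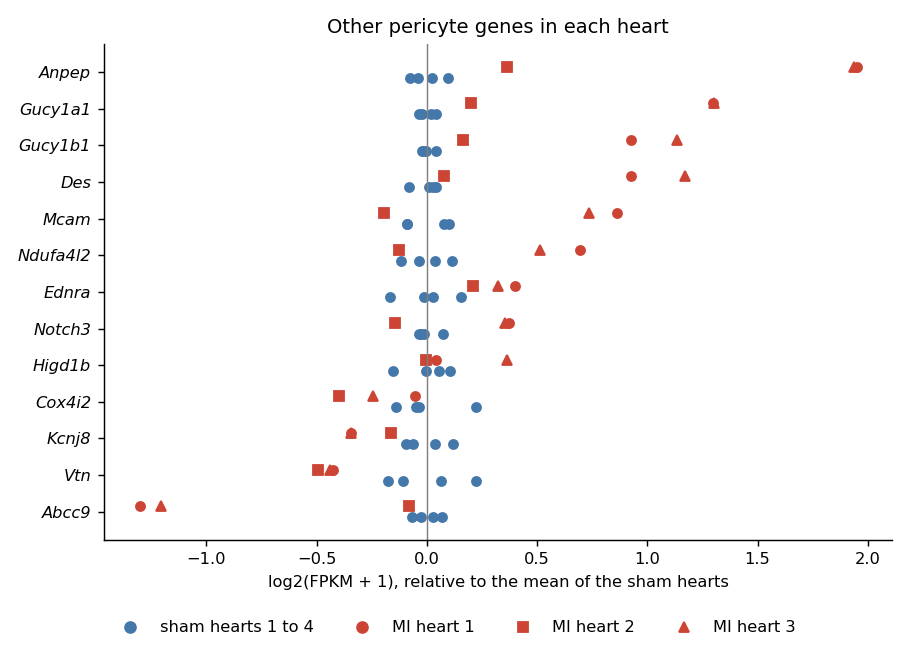
log2(FPKM + 1) of 13 other pericyte genes relative to the mean of the sham hearts (horizontal axis) in sham hearts (blue circles) and MI replicates 1 to 3 (red circle, square, triangle), ordered by log2 fold change. Abcc9, Vtn and Kcnj8 at the bottom have all 3 MI hearts below the sham hearts, and Anpep and Gucy1a1 at the top have all 3 above.

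Of 10 listed genes that process or bind PDGF 8 were tested, 0 were called with all hearts, and 5 were higher and 0 lower at an unadjusted p under 0.05, beside 29.5% and 9.85% of all genes. The median log2 fold change was 0.79, beside 0.21 for all genes. In limma 7 were called higher and 0 lower without MI replicate 2, beside 57.0% and 14.7% of all genes, and the median was 1.26. Sparc, a matrix protein that binds PDGF-B, measured 80.7 to 106 FPKM in sham hearts and 826, 104 and 737 in MI hearts. MI replicate 2 lay inside the sham range for this gene. Bmp1, a metalloprotease that acts on extracellular proteins, measured 3.70 to 3.91 FPKM in sham hearts and 26.2, 4.51 and 20.5 in MI hearts, without overlap. Pcsk7, a proprotein convertase, had 2.03 to 2.33 FPKM in sham hearts and 2.99, 1.54 and 3.06 in MI hearts. Nrp1, a co-receptor best known for VEGF, was lowest of the list, with a log2 fold change of -0.24 ± 0.10 (SE) and a limma adjusted p of 0.128.

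Of the 25 genes of receptor signalling, 24 were tested, and 0 were called with all hearts. At an unadjusted p under 0.05, 9 were higher and 0 lower, beside 29.5% and 9.85% of all genes. Their median log2 fold change was 0.28, beside 0.21 for all genes, and 17 were called higher and 0 lower without MI replicate 2, beside 57.0% and 14.7% of all genes, with a median of 0.44. Pdgfrl, a secreted protein that resembles the ligand-binding part of the receptors, measured 0.433 to 0.813 FPKM in sham hearts and 18.5, 1.04 and 17.4 in MI hearts. Its log2 fold change of 2.47 ± 0.75 (SE) was the highest of the list, or 3.54 without MI replicate 2. All sham hearts were below 1 FPKM for Pdgfrl, so it passed the filter only through the MI hearts. Its limma adjusted p of 0.108 and its place among the 9 higher genes carry that selection. Slc9a3r1, a scaffold that binds the tail of PDGF receptors, measured 3.59 to 4.52 FPKM in sham hearts and 20.1, 5.25 and 12.01 in MI hearts. The lowest log2 fold changes were those of Pik3r1, the regulatory subunit of PI 3-kinase, at -0.14 ± 0.29, and of the adaptor Gab1 at -0.07 ± 0.082 (SE).

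Markers of other cells are given beside these values. The summed level of 9 fibroblast genes was 366 to 436 FPKM in sham hearts and 2829, 560 and 2326 in MI hearts. In the sham hearts 212 to 260 FPKM of this sum came from Gsn alone. Periostin (Postn), which activated fibroblasts secrete, measured 3.12 to 4.06 FPKM in sham hearts and 206, 10.8 and 199.99 in MI hearts. Col1a1, a chain of type I collagen, measured 17.1 to 23.0 FPKM in sham hearts and 768, 40.5 and 569 in MI hearts. For both genes MI replicate 2 was above every sham heart, as it was for Pdgfra. Tcf21, a transcription factor of resident fibroblasts, had 1.54 to 2.16 FPKM and then 9.26, 2.14 and 10.3, and Gsn, the actin-severing protein gelsolin, had a log2 fold change of -0.06 ± 0.17 (SE). All 9 fibroblast genes were tested, 8 of them were higher at an unadjusted p under 0.05, beside 29.5% of all genes, and the median log2 fold change was 2.23.

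The summed level of 8 leukocyte genes was 112 to 149 FPKM in sham hearts and 787, 137 and 682 in MI hearts. Lysozyme (Lyz2) gave most of this sum, with 98.4 to 131 FPKM in sham hearts and 707, 119 and 613 in MI hearts. Cd68, Csf1r and Itgam, genes of macrophages and other myeloid cells, had log2 fold changes of 1.58, 1.03 and 0.95. Only 5 of the 8 genes passed the filter, and all 5 were higher at an unadjusted p under 0.05, beside 29.5% of all genes. Of the 8 platelet genes, which mark the blood cell after which PDGF is named, 2 were tested. Their summed level was 9.65 to 11.3 FPKM in sham hearts and 24.5, 10.4 and 12.1 in MI hearts, most of it from Pf4. Ppbp, the other platelet gene tested, had a log2 fold change of 0.25 ± 0.27 (SE).

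The summed level of 8 endothelial genes was 136 to 156 FPKM in sham hearts and 172, 129 and 184 in MI hearts. Within that list Egfl7 and Pecam1 had the highest log2 fold changes, 0.44 and 0.41, and Kdr, the VEGF receptor, and Cdh5, the endothelial cadherin, the lowest, at -0.20 and 0.06. Smooth muscle genes summed to 112 to 133 FPKM in sham hearts and to 222, 106 and 264 in MI hearts. In that list Tagln and Acta2 were highest, with log2 fold changes of 1.63 and 0.63, and Myocd and Smtn lowest, at -0.61 and -0.27. The 8 cardiomyocyte genes summed to 13728 to 14826 FPKM in sham hearts and to 8988, 13780 and 9450 in MI hearts. Among them Tnni3 and Atp2a2 had the lowest log2 fold changes, -0.93 and -0.81, and Tnnt2 and Actc1 the highest, at -0.22 and -0.19. With all hearts, 0 genes of these 6 lists of other cells were called by limma. Leaving out MI replicate 2, limma called 8 of 9 fibroblast, 5 of 5 leukocyte, 6 of 8 endothelial, 4 of 7 smooth muscle and 1 of 2 platelet genes higher, beside 57.0% of all genes. In the same fit 8 of 8 cardiomyocyte and 2 of 7 smooth muscle genes were lower, beside 14.7% of all genes. The median log2 fold changes with and without that heart were 2.23 and 3.06 for fibroblast, 1.51 and 2.20 for leukocyte, 0.22 and 0.36 for endothelial, 0.30 and 0.37 for smooth muscle, 0.36 and 0.50 for platelet and -0.64 and -0.95 for cardiomyocyte genes. No gene of the lists of other cells was listed at 0 in every heart. The part of these cell types in the values of the 8 genes was not tested.

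**Figure D4:**
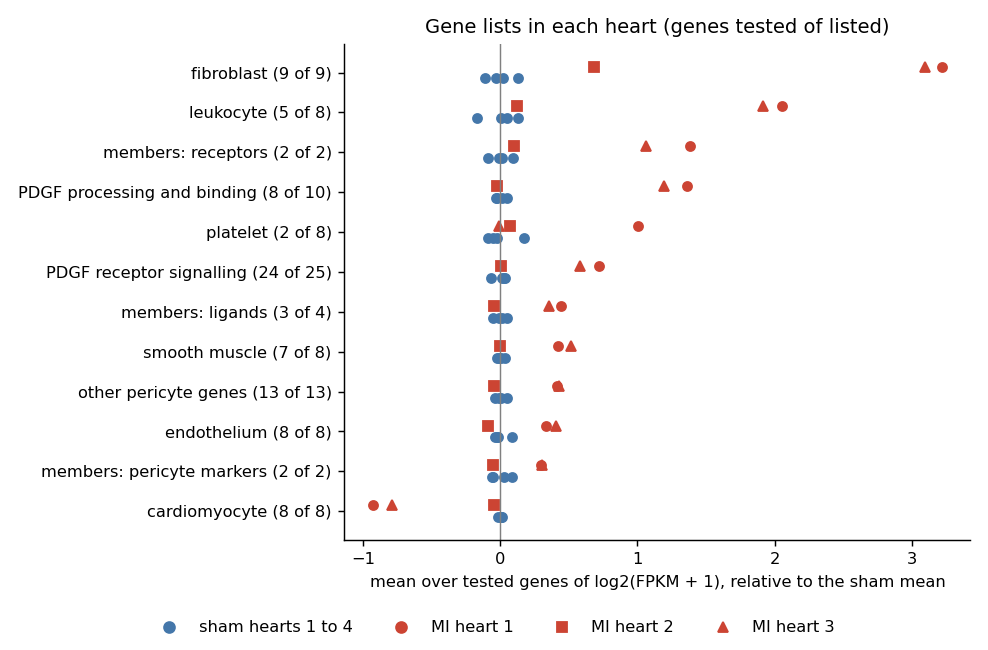
Mean over the tested genes of each list of log2(FPKM + 1), relative to the mean of the sham hearts (horizontal axis), in sham hearts (blue circles) and MI replicates 1 to 3 (red circle, square, triangle). Fibroblast and leukocyte genes lie farthest right in MI replicates 1 and 3, cardiomyocyte genes farthest left, and MI replicate 2 lies near the sham hearts for each list other than the fibroblast list.

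The profile of each of the 8 genes over the 7 hearts was also set beside that of every tested gene. Likeness was the root-mean-square (RMS) difference between changes of log2(FPKM + 1) from each gene's own sham mean, with no test. Nearest to Pdgfra were Bmper, Dtx4 and Egfr, at 0.063, 0.069 and 0.077, and 15 genes were closer than 0.1. The genes nearest to Pdgfc were Ddost, Gng2 and Calr, from 0.055 to 0.057. Rpl10a-ps1, Copb1 and Hs2st1 were nearest to Pdgfrb, from 0.034 to 0.038. The first of these is a pseudogene, whose reads may belong to its parent gene. Rfc2, Arpin and Stt3b were nearest to Pdgfa, Nudcd2, Gm7332 and Atp6v1f to Cspg4, and Cyhr1, Dcaf6 and Gm45855 to Rgs5. Near Pdgfb stood Tbck, Rad54l2 and Akap11, and near Pdgfd Golga3, Ylpm1 and Ctcf. For Pdgfb and Pdgfd 1392 and 1477 genes were closer than 0.1, so these profiles were common ones, and that of Pdgfra was rare. Within the set, Pdgfb and Pdgfd were the closest pair, at 0.084, and Pdgfra and Rgs5 the farthest apart, at 0.843.

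Levels of 3 genes carry a limit of the counting. In GENCODE M21, Pdgfa shares 813 exon bases with 6330403L08Rik on the other strand, Pdgfra shares 652 with 3 other genes, and Pdgfc shares 147 with Gm16000 on the other strand. Whether the counting used the strand is not given in the sources used here, so reads of the overlapping genes cannot be told apart. The gene lengths that the FPKM values imply were 4646 to 16084 bases and matched the GENCODE M21 exon length for 0 of the 8 genes, which bears on the order of levels between genes and not on the comparison of hearts.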

How the data were processed

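Total RNA of myocardial tissue from 4 sham and 3 MI mice was sequenced, with groups taken from the treatment labels. The authors deposited FPKM values for 56980 Ensembl genes. All 7 columns were used, and 0 were left out. The submitters' processing notes name CASAVA 1.8, HISAT2, SAMtools 1.3.1, edgeR and mm10, without their roles. The annotation, the counter and the use of strand are not given in the sources used here. Since the values moved in whole steps, fragments were recovered by finding, per gene, a length that brought all hearts within 0.05 of a whole number, which held for 100.0% of the 30504 genes above 0.

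Symbols and positions came from GENCODE M21 on GRCm38 (52073 genes matched, 91.4%). Tests covered the 11431 genes that reached 1 FPKM in 3 or more hearts, on a log2(FPKM + 1) scale that understates changes of low genes. They were made with limma 3.58.1 (trend) in R 4.3.3 and Benjamini-Hochberg adjustment at 0.05, without covariates. Tables and exact tests were made in Python 3.11.15 with pandas 2.3.3 and NumPy 2.4.6.

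The genes, lists and tests were chosen with earlier results of these data known. Named beside the 8 genes are up to 4 genes of each list, those with the 2 highest and the 2 lowest log2 fold changes among the genes tested, and the 3 nearest profiles of each of the 8 genes. The lists were counted and not tested, and 1 gene of a list is not reported here. The fit was repeated on the TPM scale, with 0.1 added in place of 1, with every gene above 0, with genes kept by their mean, and with median log-ratio scaling, quantile normalization, mitochondrial genes left out, no trend, sample weights, voom weights on recovered fragments, a replicate block and each heart left out. The within-heart differences and Pdgfc were recomputed under those of these settings that apply without the fit. Mice of the 2 groups that share a number are different animals. Nothing in the labels says how cages or extractions were shared, and p-values measure the spread between these 7 mice.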

Additional observations from a re-analysis of the deposited data

Results flagged for a closer look

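A heart that stood apart from the others of its group was looked for with Dixon's ratio, the gap to the nearest heart over the whole range, in the 4 sham hearts. Of 25 sets (the 8 genes, the 8 within-heart differences and 9 gene lists) 4 passed the 95% critical value, and chance alone gives about 1 in 20. For Pdgfa the ratio was 0.964, with sham replicate 4 at a log2(FPKM + 1) of 2.16 and the next heart at 1.94. For Rgs5 it was 0.841, with sham replicate 1 at 7.204 and the next heart at 7.07. For the difference Rgs5 minus Cspg4 it was 0.863, with sham replicate 2 at 5.23 and the next heart at 5.43. For the cardiomyocyte list it was 0.867, with sham replicate 4 at -0.018 relative to the sham mean and the next heart at 0.0042. Groups of 3, such as the MI hearts, were not tested.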

How the results depend on the processing

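Of 224 recomputed log2 fold changes of the 8 genes and within-heart differences, 218 kept the main direction, including all 87 differences. Pdgfb turned to -0.14 under median log-ratio scaling, -0.14 under quantile normalization and -0.026 without mitochondrial genes. Pdgfd turned to -0.030 under quantile normalization. Rgs5 turned to 0.17 under TPM and to 0.0044 without sham replicate 1. For Pdgfc the untested value of 0.70 was 1.44 with a pseudocount of 0.1 and 1.15 under TPM. List medians turned to -0.013 and -0.023 for endothelium under median log-ratio scaling and quantile normalization, and to -0.017 for platelets with sample weights.

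Sample weights brought 6 of the 7 tested genes past the threshold. Their log2 fold changes were 0.65 for Pdgfa, 0.16 for Pdgfb, 0.25 for Pdgfd, 1.22 for Pdgfra, 0.89 for Pdgfrb and 0.64 for Cspg4. Of all 11431 genes that fit called 7636 higher and 2316 lower, and it called 78 genes of the lists. It gave MI replicate 3 a weight of 437, MI replicate 1 one of 0.091 and MI replicate 2 one of 0.022. Its MI side thus rested almost wholly on MI replicate 3, so its calls measure little of the spread between MI hearts. Over the 7 fits without 1 heart, the log2 fold change ranged from 0.28 to 0.68 for Pdgfa, 0.020 to 0.22 for Pdgfb, 0.16 to 0.29 for Pdgfd, 0.75 to 1.49 for Pdgfra, 0.41 to 0.95 for Pdgfrb, 0.26 to 0.65 for Cspg4 and -0.050 to 0.0044 for Rgs5. Those fits called 0 to 6 of the 7 tested genes and 0 to 69 list genes. Of all genes they called 0 to 6512 higher and 0 to 1683 lower, with each upper end reached without MI replicate 2. The other 6 fits called 0 of the 7 tested genes and, of all genes, at most 4 higher and 1 lower.

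Counts of all genes, 2 higher and 1 lower, were 5 higher with a pseudocount of 0.1 and 20 higher without a filter. They were 10 higher and 5 lower under both median log-ratio scaling and quantile normalization, and 8 and 3 without mitochondrial genes. With a filter on the mean they were 0 and 0, with voom weights 1 was higher, and under TPM 0 were lower. Unadjusted, median log-ratio scaling gave 2171 higher and 2238 lower, beside 3370 and 1126. With a replicate block, sham replicate 4 has no partner and drops out. That fit called 0 genes in either direction, with 1770 higher and 562 lower at an unadjusted p under 0.05 in limma. The log2 fold change of Pdgfra was 1.06, and 0 of the 7 tested genes were called, as in the fit without the block. The unadjusted p of Pdgfrb in limma was 0.0753 with the block, 0.0937 without sham replicate 4 and no block, and 0.0447 with all hearts and no block. Deviations of same-numbered hearts correlated at 0.074, -0.016 and -0.080. These values gave no sign of pairing by number, and so few pairs cannot exclude it. The causes were not tested. Depth limits Pdgfc most, at 38 to 65 fragments in sham hearts.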
